A study of Homo sapiens with 24 samples.

Results

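The 10 genes described here are TGFB1, TGFB2, TGFB3, TGFBR1, TGFBR2, TGFBR3, TGFBI, THBS1, SMAD7 and SKIL, the ligands, receptors, targets and feedback regulators of the transforming growth factor beta (TGF-beta) pathway, chosen by name from 59385 gene symbols in the count table. All 10 passed the filter on low counts in both cell lines. RNA was sequenced from A549 and H1299, human non-small cell lung cancer lines that carry lentiviral, FLAG-tagged constructs after stable transduction. The constructs were the empty vector (Ctr) or SIRT6, a chromatin-bound NAD-dependent deacylase, as the wild type (WT), with 3 sites changed so that they cannot be acetylated (K3R) or with 3 changed to imitate acetylation (K3Q). Each of the 8 groups of line and construct had 3 libraries, coded 1-1, 1-2 and 2-2, where the first number is the biological replicate and the second the batch. All cells grew in RPMI1640 with fetal bovine serum, and the SIRT6 groups kept their own SIRT6 gene. Nothing in the labels tells if 1-1 and 1-2 were separate cultures, or if the cells were clones, so p-values measure the spread between these libraries, which may be technical.

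TGF-beta ligands are secreted in a latent form and, once freed, bind the type II receptor TGFBR2, which phosphorylates the type I receptor TGFBR1. The active complex phosphorylates SMAD2 and SMAD3, which join SMAD4 and act on target genes. Some targets close a feedback loop, among them SMAD7, which blocks the type I receptor, and SKIL, which represses SMAD-driven transcription. In carcinoma cells the pathway is known both for holding back growth and for promoting invasion and matrix production.

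Library totals ran from 16434492 to 19412274 counts in A549 and from 14943189 to 22856407 in H1299. SIRT6 stood at 23.5 to 43.1 CPM, counts scaled to a common library size, in the 6 Ctr libraries. In A549 the SIRT6 constructs gave 1440 to 3428 CPM. In H1299, WT gave 2349 to 6286, K3R 2635 to 5664 and K3Q 10589 to 14521 CPM, so the K3Q libraries held the most SIRT6 RNA. Keratins KRT8 and KRT18 were present in both lines, whereas the epithelial markers CDH1, EPCAM and KRT19 were at most 0.599 CPM in H1299. CLDN4, also an epithelial marker, was at 1.49 to 4.07 CPM in H1299 and at 5.23 to 9.86 in A549. Summed over 5 fibroblast markers, A549 libraries reached 5.68 CPM and H1299 libraries 1.88 CPM, and 4 leukocyte and vessel markers together stayed below 1 CPM. Mitochondrial transcripts took 6.04% to 8.32% of counts in A549 and 2.22% to 3.73% in H1299. The A549 K3Q libraries 1-2 and 2-2 were much closer to each other (2.49 as chi-square of their counts per degree of freedom) than the 23 other pairs within groups (14.4 to 63.6), so values are also given without that construct or with the pair summed where they matter. In bulk RNA, fewer cells with a transcript and less of it per cell cannot be told apart.

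By the GENCODE 29 annotation of GRCh38, the ligand genes lie at chr19:41301587-41353911 on the minus strand (TGFB1), chr1:218346235-218444619 on the plus strand (TGFB2) and chr14:75958099-75982991 on the minus strand (TGFB3). The receptors lie at chr9:99104038-99154192 (TGFBR1, plus), chr3:30606502-30694142 (TGFBR2, plus) and chr1:91680343-91906335 (TGFBR3, minus). The others lie at chr5:136028895-136063818 (TGFBI, plus), chr15:39581079-39599466 (THBS1, plus), chr18:48919853-48952052 (SMAD7, minus) and chr3:170357678-170396835 (SKIL, plus). All 10 are protein-coding, and levels per kilobase below use the length of all their exons. Exons of TGFB2 share 1371 bases, 26.62% of its exon length, with TGFB2-OT1 on the same strand, which was listed at 0 in all 24 libraries. How reads over these shared bases were assigned is not given. If they were dropped, the level of TGFB2 per kilobase is too low. Antisense or opposite-strand genes share 448 exon bases with THBS1 (FSIP1) and a further 411 (AC037198.2), 215 with TGFB1 (HNRNPUL1) and 163 with TGFB3 (TGFB3-AS1), and without a stated strand setting their reads cannot be told apart.

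The promoter sequences of the 4 genes that passed the test with wild-type SIRT6 in H1299 are printed here, 250 bases before a RefSeq start on GRCh38.p14, 5′ to 3′, with any CAGACA, the core of the SMAD-binding CAGA box, in capitals as CAGACA or its reverse complement TGTCTG. Where a gene had several windows, the TGFBR1 window nearest the GENCODE start and the TGFBR2 window lying wholly before it were taken.
TGFB2, chr1:218345086-218345335, plus strand: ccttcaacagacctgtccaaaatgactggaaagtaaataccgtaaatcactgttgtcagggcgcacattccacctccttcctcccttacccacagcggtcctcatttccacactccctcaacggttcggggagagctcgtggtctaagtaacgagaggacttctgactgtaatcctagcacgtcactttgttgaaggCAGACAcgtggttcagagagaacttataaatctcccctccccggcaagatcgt
THBS1, chr15:39580829-39581078, plus strand: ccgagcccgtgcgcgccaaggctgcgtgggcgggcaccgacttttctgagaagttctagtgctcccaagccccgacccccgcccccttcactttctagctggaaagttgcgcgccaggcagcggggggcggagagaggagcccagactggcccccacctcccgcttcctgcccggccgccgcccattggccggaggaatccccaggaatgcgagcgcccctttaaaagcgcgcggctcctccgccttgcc
TGFBR2, chr3:30606106-30606355, plus strand: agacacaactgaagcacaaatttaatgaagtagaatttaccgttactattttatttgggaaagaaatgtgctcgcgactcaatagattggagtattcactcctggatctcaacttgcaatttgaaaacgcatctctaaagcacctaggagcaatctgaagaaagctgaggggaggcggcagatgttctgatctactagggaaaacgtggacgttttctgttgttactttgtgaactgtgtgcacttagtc
TGFBR1, chr9:99103802-99104051, plus strand: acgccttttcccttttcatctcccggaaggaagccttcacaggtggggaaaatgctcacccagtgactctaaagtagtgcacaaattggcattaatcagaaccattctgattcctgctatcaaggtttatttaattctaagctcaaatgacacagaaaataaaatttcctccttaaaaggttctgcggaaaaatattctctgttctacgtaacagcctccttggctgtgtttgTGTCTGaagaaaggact
The TGFB2 window held CAGACA 53 to 48 bases before the RefSeq start, which is 899 bases from the GENCODE start at the window's end. The TGFBR1 window held TGTCTG 17 to 12 bases before its start. The printed THBS1 and TGFBR2 windows differed in base composition, with 69.6% and 40.8% G and C. The TGFBR2 window that was not printed, whose RefSeq start is nearer the GENCODE start, had 58.4%. By the rule used for TGFBR2, the TGFBR1 window would be chr9:99103397-99103646, which held no CAGACA. Over both strands, 13.6% of 35116 RefSeq windows of this length held CAGACA, 4.2% held the AP-1 site TGAGTCA and 0.182% held the SMAD palindrome GTCTAGAC. All 10 genes were found in the promoter table, with 21 windows. CAGACA was held by 3 of them, the TGFB2 window and 2 of 8 TGFBR1 windows, a share of 14.3% that is near that of all windows, and none held either of the others. The letters say nothing of whether a factor binds there.

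Which genes of the pathway each line uses was read from the Ctr libraries, as CPM per kilobase of exon so that genes can be compared. In A549, TGFBI, a secreted matrix protein induced by TGF-beta, was the highest at 119.5 ± 6.72 CPM per kilobase (SD, n = 3), followed by TGFB1 at 64.2 ± 8.38 and TGFBR2 at 53.1 ± 3.10. In H1299, TGFB1 came first at 102 ± 9.73 CPM per kilobase, with TGFBI at 11.9 ± 3.97 and TGFBR2 at 8.64 ± 0.918. TGFB1 and TGFBR2 did not overlap over the 3 A549 libraries, while TGFBI and TGFBR2 of H1299 did. TGFB2 held the fourth place in A549, at 15.5 ± 3.05 and overlapping with THBS1 in the fifth, and the ninth of 10 in H1299, at 1.42 ± 0.316, with TGFB3 in the last place in both lines at 0.277 ± 0.102 and 0.795 ± 0.229. The genes between these, SKIL, SMAD7, TGFBR1 and THBS1 in A549 and SMAD7, TGFBR3, THBS1, SKIL and TGFBR1 in H1299, had ranges that overlapped with those of a neighbour.

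**Figure D1:**
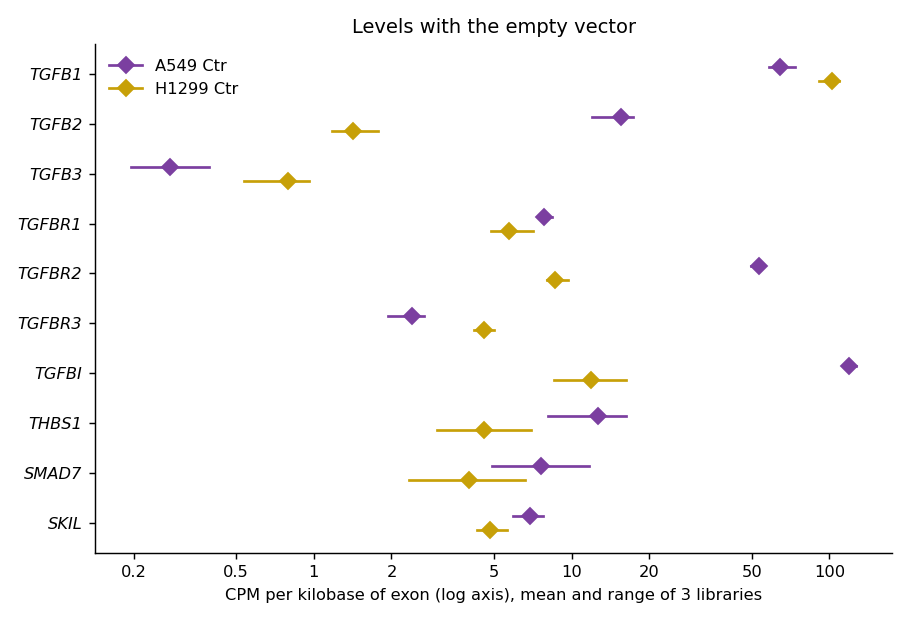
CPM per kilobase of exon (log axis) of the 10 genes in the Ctr groups of A549 and H1299; diamonds are means and lines the range of 3 libraries. TGFBI at 119.5 in A549 against 11.9 in H1299 and TGFB2 at 15.5 against 1.42 stand far apart, whereas TGFB1 leads H1299 at 102.

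The comparison of the lines with the empty vector sets the background for the constructs. All 10 genes passed the test between H1299 and A549, where 64.9% of 18102 genes did (edgeR's quasi-likelihood test, p-values adjusted by Benjamini-Hochberg over all genes tested, threshold 0.05, as throughout). A gene is said to have changed only where it passed. The ligand TGFB2 was at 61.6, 88.9 and 88.7 CPM in the A549 Ctr libraries 1-1, 1-2 and 2-2 and at 9.16, 6.76 and 6.05 in those of H1299. TGFBI was at 913, 993 and 894 CPM in A549 and at 66.8, 84.9 and 127 in H1299. TGFBR2, the type II receptor, was at 263, 253 and 234 CPM in A549 and at 37.7, 38.7 and 45.6 in H1299. None of these 3 genes overlapped between the lines, and they were lower in H1299 by 10.7-fold (TGFB2, adjusted p = 6.71e-11), 11.1-fold (TGFBI, 4.24e-12) and 6.35-fold (TGFBR2, 7.48e-14). How many of all genes had groups without overlap was not counted, here or in the comparisons below. Overlap is therefore given only as a description of the values.

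A further 4 genes were lower in H1299. THBS1, which encodes thrombospondin-1, a matrix protein able to free TGF-beta from its latent form, differed by -1.29 ± 0.33 on the log2 scale (SE, adjusted p = 0.00172), and by -2.15 without H1299 Ctr 1-1, its highest Ctr library in that line. SKIL differed by -0.61 ± 0.15 (0.00157) and the type I receptor TGFBR1 by -0.55 ± 0.15 (0.00315). SMAD7 differed by -1.02 ± 0.32 (0.00877), a call that ended without A549 Ctr 2-2, without H1299 Ctr 1-2 (adjusted p up to 0.0548) and with no batch term. The remaining 3 genes were higher in H1299. The ligand TGFB3 differed by 1.49 ± 0.28 (adjusted p = 0.000115), the co-receptor TGFBR3, also called betaglycan, by 0.90 ± 0.20 (0.0006), and TGFB1 by 0.66 ± 0.13 (0.000122). TGFB3 had few reads, with 14 to 30 counts per library in A549 and 49 to 157 in H1299.

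**Figure D2:**
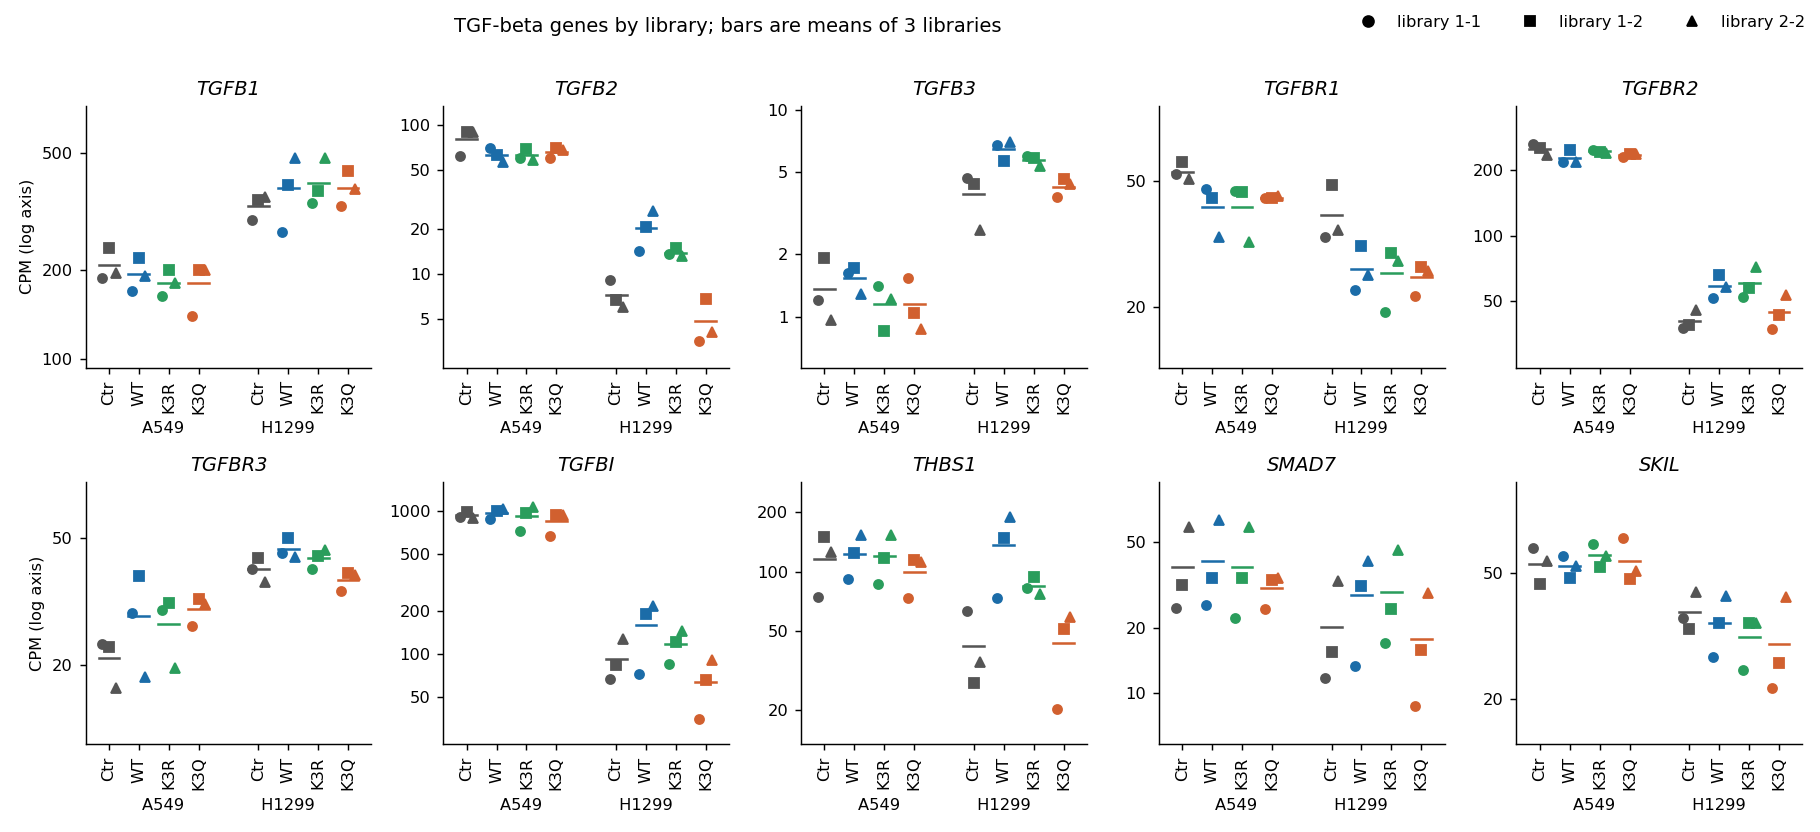
CPM (log axis) of the 10 genes in each of the 24 libraries, by line and construct; symbols mark the library code and bars the mean of 3 libraries. In H1299 the WT and K3R libraries of TGFB2 lie above all Ctr libraries, while in A549 the construct groups of most genes overlap with Ctr.

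Within each line, the SIRT6 forms were tested against the empty vector and against each other. With wild-type SIRT6, 4 of the 10 genes changed in H1299, where 4.05% of 16262 genes passed. TGFB2, THBS1 and TGFBR2 rose and TGFBR1 fell. The median log2 change of the 10 was 0.49, against -0.01 over all genes tested. These genes and the lists below were chosen with earlier results of these data known, so such shares and medians do not test the pathway.

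Among the ligands, TGFB2 was at 9.16, 6.76 and 6.05 CPM in the H1299 Ctr libraries 1-1, 1-2 and 2-2 and at 14.2, 20.8 and 26.6 CPM with WT. Every WT library was above every Ctr library, and WT 2-2 was the highest. Its rise was 2.73-fold, 1.45 ± 0.25 on the log2 scale (adjusted p = 0.00746). The call held in each of 12 fits that left out 1 library (1.24 to 1.80 on the log2 scale), and in batch 2 alone the difference was 1.89 (adjusted p = 0.0208). TGFB3 was at 4.71, 4.39 and 2.62 CPM with Ctr and at 6.76, 5.67 and 6.99 with WT. Its groups did not overlap, but the difference of 0.73 ± 0.22 did not pass (adjusted p = 0.0811). With the library code as a block it passed (0.74, adjusted p = 0.0355). TGFB1, the most abundant ligand in both lines, was at 296, 345 and 354 CPM with Ctr and at 271, 390 and 481 with WT. These groups overlapped, and the log2 difference was 0.18 ± 0.14 (adjusted p = 0.56).

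The receptors moved in opposite directions. TGFBR2 was at 37.7, 38.7 and 45.6 CPM in the H1299 Ctr libraries and at 51.7, 65.9 and 57.8 with WT, a rise of 1.44-fold (0.52 ± 0.12 on the log2 scale, adjusted p = 0.0326). TGFBR1 was at 33.3, 48.5 and 35.1 CPM with Ctr and at 22.6, 31.3 and 25.2 with WT, a fall of 1.47-fold (-0.56 ± 0.13, adjusted p = 0.033). Neither receptor overlapped between the groups. Both calls were close to the threshold. That of TGFBR2 ended in 8 of 12 fits without 1 library (any of the 6 Ctr and WT libraries, K3R 1-1 or K3Q 1-1), with log2 differences of 0.44 to 0.58 and adjusted p up to 0.128. That of TGFBR1 ended in 6 of 12 (Ctr 1-1, Ctr 1-2, any WT library or K3Q 1-1), with -0.68 to -0.44 and adjusted p up to 0.146. In batch 2 alone the differences were 0.55 and -0.56, and neither passed (adjusted p = 0.232 for each). Both also missed the threshold with no batch term (adjusted p = 0.106 for TGFBR2 and 0.146 for TGFBR1) and with the 2 libraries of biological replicate 1 summed (0.38 and 0.21). TGFBR3, which presents ligand to the other receptors, was at 36.3 to 43.3 CPM with Ctr and at 43.6 to 49.8 with WT, and its difference of 0.21 ± 0.10 did not pass (adjusted p = 0.311).

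Of the matrix genes, THBS1 was at 63.5, 27.4 and 34.9 CPM in the H1299 Ctr libraries and at 73.5, 147 and 188 CPM with WT. The groups did not overlap, but Ctr 1-1 and WT 1-1 lay near each other. The rise was 3.03-fold (1.60 ± 0.39 on the log2 scale, adjusted p = 0.0385). It was 2.43 on that scale in batch 2 alone (adjusted p = 0.00218). The call ended in 7 of 12 fits (without Ctr 1-2, Ctr 2-2, WT 1-2, WT 2-2, K3R 1-1, K3Q 1-2 or K3Q 2-2), with log2 differences over the 12 fits of 1.24 to 2.32, the latter without Ctr 1-1, and adjusted p up to 0.17. TGFBI was at 66.8, 84.9 and 127 CPM with Ctr and at 72.5, 190 and 216 with WT, groups that overlapped (0.68 ± 0.20, adjusted p = 0.0787). TGFBI passed without WT 1-1 (0.89, adjusted p = 0.044) and with the library code as a block (0.70, adjusted p = 0.00782).

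The feedback genes did not pass with WT. SMAD7 was at 11.7, 15.6 and 33.1 CPM in the H1299 Ctr libraries and at 13.4, 31.3 and 40.9 with WT, a difference of 0.45 ± 0.30 (adjusted p = 0.483). Each WT library was above the Ctr library of the same code, and the block gave 0.51 (adjusted p = 0.0295). SKIL was at 36.0, 33.3 and 43.5 CPM with Ctr and at 27.1, 34.7 and 42.5 with WT, groups that overlapped (-0.14 ± 0.18, adjusted p = 0.767). With the block, 7 of the 10 genes and 9.75% of all genes passed in this comparison.

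With the acetylation-deficient form K3R the same receptors changed. In K3R against Ctr, 2 of the 10 genes passed, where 3.25% of 16262 genes did. TGFBR1 was at 19.4, 29.6 and 28.0 CPM with K3R, lower by 1.54-fold than Ctr (-0.62 ± 0.13, adjusted p = 0.024). TGFBR2 was at 52.0, 57.3 and 71.6 CPM, higher by 1.47-fold (0.56 ± 0.12, adjusted p = 0.0273). For each, the K3R and Ctr libraries did not overlap. The TGFBR1 call ended without Ctr 1-1, Ctr 1-2, K3R 1-1 or K3R 2-2 (-0.74 to -0.50 over 12 fits, adjusted p up to 0.147), and the TGFBR2 call without any Ctr library, K3R 1-1, K3R 2-2 or K3Q 1-1 (0.46 to 0.64, up to 0.133). In batch 2 alone they were -0.55 (adjusted p = 0.31) and 0.60 (0.246). Neither passed with no batch term (adjusted p = 0.126 and 0.0918) or with replicate 1 summed (0.237 and 0.281).

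TGFB2 in K3R was at 13.6, 15.0 and 13.2 CPM, between Ctr and WT and above all Ctr libraries, with a log2 difference from Ctr of 0.90 ± 0.25 that did not pass (adjusted p = 0.0719). THBS1 was at 82.9, 93.4 and 77.2 CPM, also above all Ctr libraries (0.95 ± 0.38, adjusted p = 0.216). In batch 2 alone THBS1 was the gene of the 10 that passed (1.44, adjusted p = 0.0416). Without Ctr 1-1, THBS1 (1.76, adjusted p = 0.0153) and TGFB2 (1.27, 0.0261) passed, while neither receptor did, and TGFB2 also passed without WT 2-2 (0.91, 0.0452). With the block, where 8.56% of all genes passed, 4 genes did, the receptors together with TGFB2 (0.90, adjusted p = 0.0303) and SMAD7 (0.55, adjusted p = 0.0245). Between K3R and WT, 0 of the 10 genes and 0% of 16262 genes passed by edgeR. An unadjusted p under 0.05 was found for 1 of the 10 and for 486 of the 16262, and 0 of the 10 passed by DESeq2. The widest of these differences were those of THBS1, at -0.65 ± 0.38, and TGFB2, at -0.55 ± 0.24 (adjusted p = 0.999 for each). Missing the threshold does not show that the 2 forms act alike.

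The K3Q form was set against Ctr and against the other forms. Against Ctr, 0 of the 10 genes passed by edgeR, where 0.0615% of 16262 genes did. Of the 10, 3 had an unadjusted p under 0.05, as did 1580 of the 16262. By DESeq2 1 of the 10, TGFBR1, passed, as did 0.775% of all genes. TGFBR1 was at 21.8, 26.8 and 26.1 CPM, below every Ctr library (-0.65 ± 0.13, adjusted p = 0.135), and differed from WT by -0.09 ± 0.13 and from K3R by -0.03 ± 0.13. It passed with the block (-0.64, adjusted p = 0.0201), as did 0.836% of all genes. TGFB2 was at 3.57, 6.86 and 4.12 CPM (-0.65 ± 0.27, adjusted p = 0.453) and TGFBI at 35.5, 65.9 and 91.3 CPM (-0.60 ± 0.20, adjusted p = 0.368), each overlapping with Ctr. THBS1 was at 20.3, 51.1 and 59.3 CPM and differed from Ctr by -0.06 ± 0.39 (adjusted p = 0.974). That value rested on Ctr 1-1 (63.5 CPM) and K3Q 1-1. In batch 2 both K3Q libraries were above both Ctr libraries (27.4 and 34.9), with a difference of 0.82 ± 0.19 (unadjusted p = 0.00177) that did not pass (adjusted p = 0.994). It was 0.65 without Ctr 1-1 and 0.39 without K3Q 1-1.

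Set against WT, 3 of the 10 genes were lower in K3Q and none was higher, where 3.46% of 16262 genes passed. TGFB2 was 4.28-fold lower (-2.10 ± 0.26, adjusted p = 0.00357), and its highest K3Q library (6.86 CPM) was below its lowest WT library (14.2). This call held in all 12 fits without 1 library (-2.39 to -1.88) and in batch 2 alone (-2.13, adjusted p = 0.0383). TGFBI was 2.43-fold lower (-1.28 ± 0.20, adjusted p = 0.00693). Its groups overlapped, because WT 1-1 (72.5 CPM) lay below K3Q 2-2 (91.3), and each K3Q library was below the WT library of the same code. Leaving out K3Q 1-1 ended the call (adjusted p = 0.0638), as did taking batch 2 by itself (-1.38, 0.0798), using no batch term (0.112) and summing replicate 1 (0.252). THBS1 was 3.16-fold lower with K3Q than with WT (-1.66 ± 0.38, adjusted p = 0.0353). Its groups did not overlap, and batch 2 alone gave -1.61 (adjusted p = 0.0331). That call ended without WT 1-2, WT 2-2, K3R 1-1, K3Q 1-1 or K3Q 1-2 (-1.95 to -1.31 over 12 fits, adjusted p up to 0.174), with no batch term (adjusted p = 0.0542) and with replicate 1 summed (0.0901). TGFBR2 passed without K3Q 2-2 (-0.51, adjusted p = 0.0466). With the block 6 genes and 1946 of all 16262 genes passed, the 6 all lower in K3Q, the others being SMAD7 (-0.72, adjusted p = 0.00563), TGFBR2 (-0.41, adjusted p = 0.0176) and TGFBR3 (-0.32, adjusted p = 0.0367).

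Against K3R, 1 gene passed in K3Q, where 0.449% of 16262 genes did. TGFB2 was 2.93-fold lower (-1.55 ± 0.26, adjusted p = 0.0253), with no overlap between the groups. The call ended without K3R 1-1, K3R 2-2 or any K3Q library (-1.84 to -1.38 over 12 fits, adjusted p up to 0.206) in batch 2 alone (-1.37, adjusted p = 0.262) and with replicate 1 summed (0.143). TGFBI passed without Ctr 1-2, WT 2-2 or K3R 1-2 (-1.07 to -0.93, adjusted p = 0.034 to 0.0483). The block, with which 3.23% of all genes passed, gave 4 genes lower in K3Q, TGFB2, TGFBI (-0.94, adjusted p = 0.00373), SMAD7 (-0.75, adjusted p = 0.00984) and TGFBR2 (-0.44, adjusted p = 0.0294). H1299 K3Q held more SIRT6 RNA than WT and K3R (12927 ± 2069 CPM against 3746 ± 2203 and 4107 ± 1516, SD, n = 3), and the part of this difference in the values above was not tested.

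**Figure D3:**
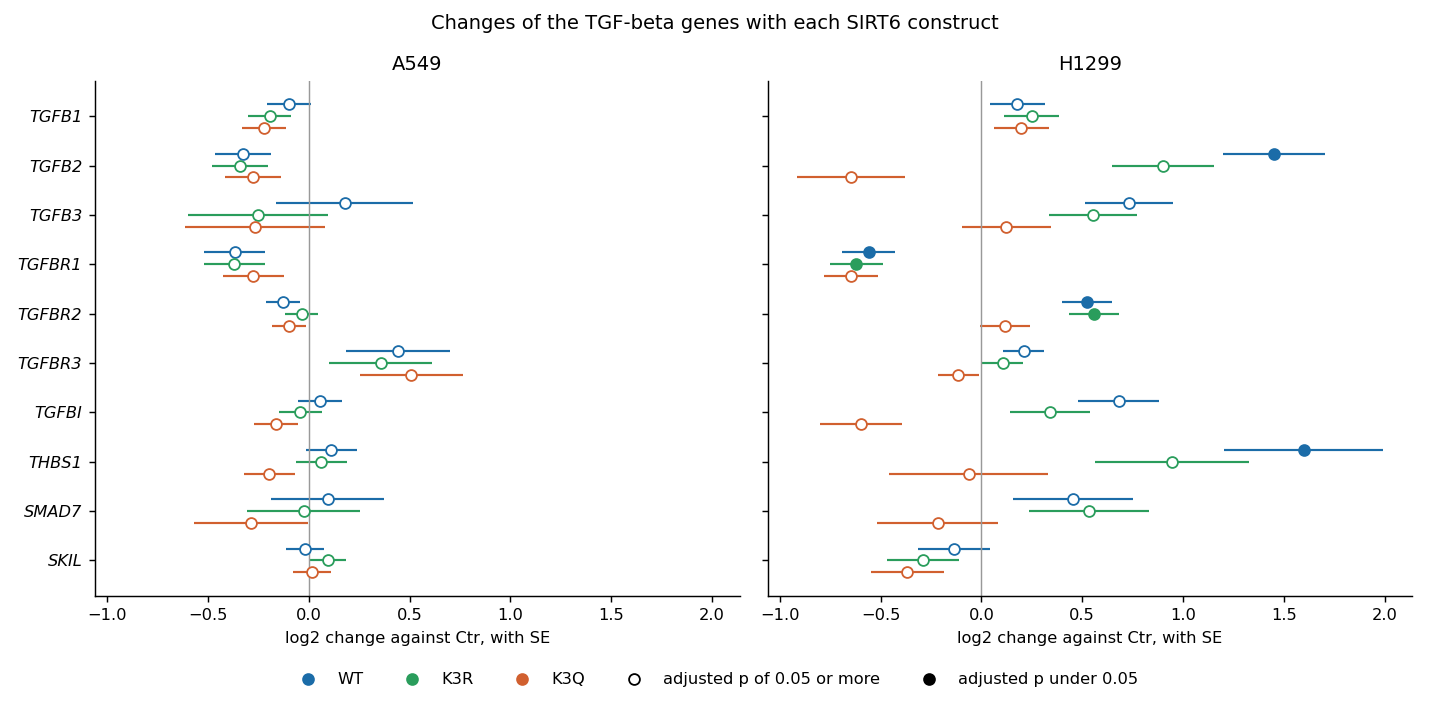
Log2 change against Ctr, with its standard error, of the 10 genes for WT, K3R and K3Q in each line; filled points passed at an adjusted p under 0.05. In H1299 TGFB2 and THBS1 reached 1.45 and 1.60 with WT and lay at -0.65 and -0.06 with K3Q (THBS1 at 0.82 in batch 2 alone), while no point of A549 is filled.

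In A549 none of the 10 genes passed by edgeR in any of the 6 comparisons. The shares of 16120 genes that passed were 0.105% for WT, 0.118% for K3R and 0.0248% for K3Q against Ctr, 0% for K3R against WT, 0.0062% for K3Q set against WT and 0.0062% for K3Q set against K3R. Unadjusted p-values under 0.05 numbered 2, 2 and 0 against Ctr and 0, 1 and 0 in the other comparisons, in the same order. Over all 16120 genes they numbered 1279, 1115 and 1390, and 116, 1041 and 708. DESeq2 called 0 of the 10 in each. The same counts of 0 were found with the near-identical K3Q pair summed. The test had little power for small changes: on simulated counts it recovered 20.4% of genes changed 1.5-fold and 83% of those changed 3-fold in A549, against 24.2% and 86.9% in H1299.

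TGFBR1 in A549 was at 52.3, 57.2 and 50.6 CPM with Ctr, at 46.9, 44.1 and 33.2 with WT, at 46.3, 46.0 and 32.0 with K3R and at 44.1, 44.0 and 44.8 with K3Q. All 9 SIRT6 libraries were below all 3 Ctr libraries, with log2 differences of -0.37 ± 0.15, -0.37 ± 0.15 and -0.27 ± 0.15 that did not pass (adjusted p = 0.577, 0.654 and 0.644). The 9 are not independent, since they share the same 3 Ctr libraries and include the near-identical K3Q pair (44.0 and 44.8). TGFB2, which rose with WT in H1299, was at 61.6, 88.9 and 88.7 CPM with Ctr and at 69.5, 62.3 and 56.3 with WT in A549 (-0.33 ± 0.14, adjusted p = 0.593). TGFBR3 was at 23.3, 22.7 and 16.9 CPM with Ctr and at 26.4, 32.2 and 30.9 with K3Q, groups that did not overlap (0.51 ± 0.26, adjusted p = 0.619). The last 2 K3Q values are those of the near-identical pair. At 2-2, WT and K3R were at 18.3 and 19.5 CPM, near Ctr, and K3Q at 30.9. The part of this likeness of the pair in the separation was not tested. THBS1, at 74.3 to 149 CPM with Ctr and 91.8 to 153 with WT, and TGFBI, at 894 to 993 and 881 to 1036, overlapped throughout. TGFB1, TGFB3, TGFBR2, SMAD7 and SKIL had log2 differences from Ctr of -0.29 to 0.18 over the SIRT6 forms.

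Whether the lines responded differently was tested by the interaction of line and construct over all 24 libraries. For WT, 2 of the 10 genes passed, where 0.735% of 18102 genes did. The change of TGFB2 was higher in H1299 than in A549 by 1.77 ± 0.30 on the log2 scale (adjusted p = 0.00541), and this held in all 24 fits without 1 library (1.59 to 2.13). That of TGFBR2 was higher by 0.65 ± 0.15 (adjusted p = 0.0433), a call that held in 6 of 24 such fits and ended in 18, without A549 Ctr 1-1 or 1-2, A549 WT 1-1 or 2-2, any A549 K3R or K3Q library, any H1299 Ctr or WT library, H1299 K3R 1-1 or H1299 K3Q 1-1 (0.58 to 0.73, adjusted p up to 0.155). The THBS1 interaction was 1.48 ± 0.46 and did not pass (adjusted p = 0.187), but passed without H1299 Ctr 1-1 (2.21, adjusted p = 0.00189) and by DESeq2. For TGFBR1 it was -0.19 ± 0.21 (adjusted p = 0.865), so the fall seen in H1299 was not shown to differ from the A549 values.

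The interaction with K3R gave 0 of the 10 genes by edgeR, where 0.475% of 18102 genes passed. Of the 10, 3 had an unadjusted p under 0.05, as did 1479 of the 18102, and 2 passed by DESeq2, as did 1.33% of all genes. TGFB2 was at 1.25 ± 0.30 (adjusted p = 0.0672) and TGFBR2 at 0.60 ± 0.15 (adjusted p = 0.087), and both passed with the block (adjusted p = 0.0228 and 0.0179), as did 1.66% of all genes. Without H1299 Ctr 1-1, TGFB2 (1.63, adjusted p = 0.00986) and THBS1 (1.71, 0.0216) passed, and TGFB2 also passed without H1299 WT 1-1 or WT 2-2 (1.28 and 1.27, 0.0459 and 0.0422). The interaction with K3Q gave 0 of the 10 by edgeR, where 0.0166% of 18102 genes passed. An unadjusted p under 0.05 was found for 2 of the 10 and for 1135 of the 18102, and 0 of the 10 passed by DESeq2.

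The biological replicates of batch 2 show how far these genes moved with no change of construct. Over the 4 constructs of H1299, 3 of the 10 genes were higher in libraries 2-2 than in 1-2, where 11.8% of 16240 genes passed. SMAD7 was at 15.6, 31.3, 24.6 and 15.8 CPM in the 1-2 libraries of Ctr, WT, K3R and K3Q and at 33.1, 40.9, 46.1 and 28.9 in the 2-2 libraries, higher in 4 of 4 pairs (0.84 ± 0.12, adjusted p = 0.00106). TGFBI differed by 0.41 ± 0.09 (adjusted p = 0.0119) and SKIL by 0.37 ± 0.11 (adjusted p = 0.0443). The SMAD7 call held in 8 of 8 fits without 1 library, that of TGFBI ended without Ctr 1-2 or Ctr 2-2 (adjusted p up to 0.111), and that of SKIL ended without any library of Ctr, WT or K3Q (adjusted p up to 0.199). TGFB1 passed without either K3Q library (0.26, adjusted p = 0.0226 and 0.0221). The difference of SMAD7 between replicates was larger than each of its differences from Ctr in H1299 (0.45, 0.53 and -0.22).

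In A549 the same comparison gave 0 of the 10 genes by edgeR, where 0.0248% of 16101 genes passed. Of the 10, 3 had an unadjusted p under 0.05, as did 4777 of the 16101, and 2 passed by DESeq2, as did 11.4% of all genes. The K3Q pair stood apart here: SMAD7 was at 31.6, 34.2 and 34.0 CPM in the 1-2 libraries of Ctr, WT and K3R and at 58.8, 63.1 and 58.5 in their 2-2 libraries, but at 33.2 and 34.0 in K3Q. TGFBR3 went the other way, from 22.7, 37.8 and 31.2 CPM to 16.9, 18.3 and 19.5, with 32.2 and 30.9 in K3Q. Without K3Q 4 of the 10 genes passed, a share near the 34.8% of 15882 genes that did so there. They were SMAD7 (0.85, adjusted p = 8.0e-05), TGFBR3 (-0.73, adjusted p = 0.00177), TGFBR1 (-0.37, adjusted p = 0.0124) and TGFB1 (-0.21, adjusted p = 0.0334).

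**Figure D4:**
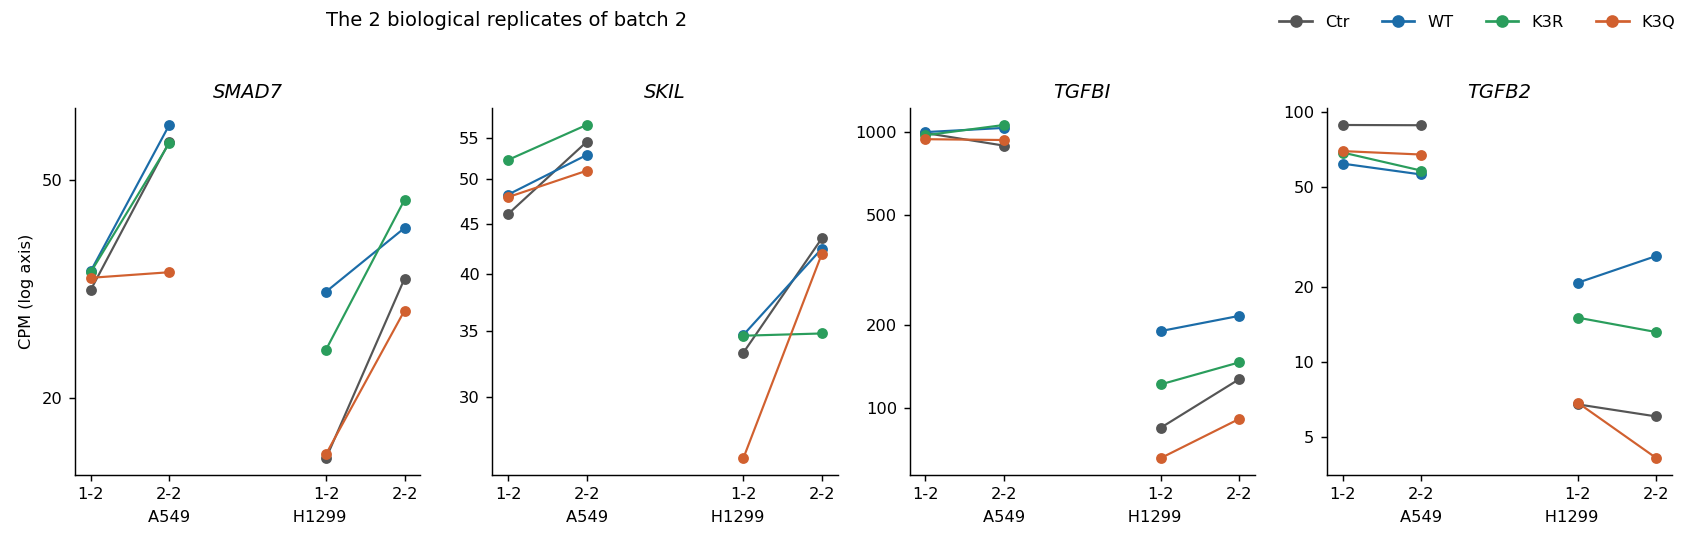
CPM (log axis) of SMAD7, SKIL, TGFBI and TGFB2 in libraries 1-2 and 2-2 of each line, joined by construct. SMAD7 lies higher at 2-2 in every construct of H1299, and in A549 it stands at 58.5 to 63.1 at 2-2 in Ctr, WT and K3R but at 34.0 in K3Q. TGFB2 in H1299 is highest in WT and next in K3R at both codes.

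Other genes of the pathway were read from 5 lists with 72 genes: ligand latency and release, the activin class, other receptors, SMADs and their regulators, and other targets. Of these 63 were tested in A549 and 56 in H1299. With WT in H1299, 2 of the 56 rose and 2 fell, where 4.05% of all 16262 genes passed. FSTL3, a secreted antagonist of activin, rose from 12.8 ± 3.15 CPM with Ctr to 36.2 ± 22.3 (SD, n = 3; 1.49 ± 0.36, adjusted p = 0.0348), with 0.84 and no call without WT 2-2 (adjusted p = 0.108). CDKN2B, a cell cycle inhibitor known as a TGF-beta target, rose from 24.1 ± 0.621 to 40.9 ± 10.5 CPM (0.76 ± 0.19, adjusted p = 0.0447). SMURF2, a ubiquitin ligase that acts on the receptors, fell by 0.65 ± 0.15 (adjusted p = 0.0334). JUNB, a subunit of AP-1, fell by 0.60 ± 0.15 (adjusted p = 0.0395).

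Over the 56 genes the median log2 change with WT was 0.13, against -0.01 over all genes. Of the 22 tested targets, 1 rose and 1 fell. None of 8 latency genes and none of 6 other receptors passed by edgeR, with 0 and 1 at an unadjusted p under 0.05, as were 2849 of 16262 genes.

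With K3R in H1299, 1 of the 56 genes of the lists rose and 2 fell, where 3.25% of all 16262 genes passed. FSTL3 rose by 1.57 ± 0.36 (adjusted p = 0.031), SMURF2 fell by 0.64 ± 0.15 (0.0418) and FN1, which encodes fibronectin, fell by 0.81 ± 0.19 (0.0328). K3Q against Ctr gave 0 of 56 by edgeR, with 14 at an unadjusted p under 0.05, as were 1580 of 16262 genes, and 0 by DESeq2. Its lowest p-values by list were those of FN1 (-0.61, adjusted p = 0.339) and LOX (-0.98, 0.372) among the targets. Against WT, K3Q had 4 of the 56 genes lower and none higher, where 3.46% of all genes passed. LOX, which crosslinks collagen, was lower by 1.48 ± 0.33 on the log2 scale (adjusted p = 0.0301), LTBP2 by 0.63 ± 0.15 (0.0354), LTBP3, which holds latent TGF-beta in the matrix, by 0.72 ± 0.17 (0.0358), and the inhibitory SMAD6 by 1.12 ± 0.28 (0.0452). K3R against WT and K3Q against K3R gave 0 of 56 by edgeR, with 0 and 14 at an unadjusted p under 0.05. Of all 16262 genes, 486 and 1938 were under 0.05. DESeq2 called 0 of the 56 in K3R against WT and 3 in K3Q against K3R, where 0% and 2.07% of all genes passed. LTBP2 and LTBP3 had the lowest p in the latter (-0.60 ± 0.15 and -0.69 ± 0.17, adjusted p = 0.0968 for each).

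Of the 11 calls in these lists, the number of 12 fits without 1 library in which each held ran from 3 (CDKN2B and JUNB with WT, SMAD6 in K3Q against WT) to 7 (LOX in K3Q against WT). With the block 8 of the 56 genes of the lists passed for WT, 6 for K3R, 17 in K3Q against WT and 4 in K3Q against K3R. Of all 16262 genes, 1585, 1392, 1946 and 526 passed with the block, in the same order, so these counts are to be read against that background.

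**Figure D5:**
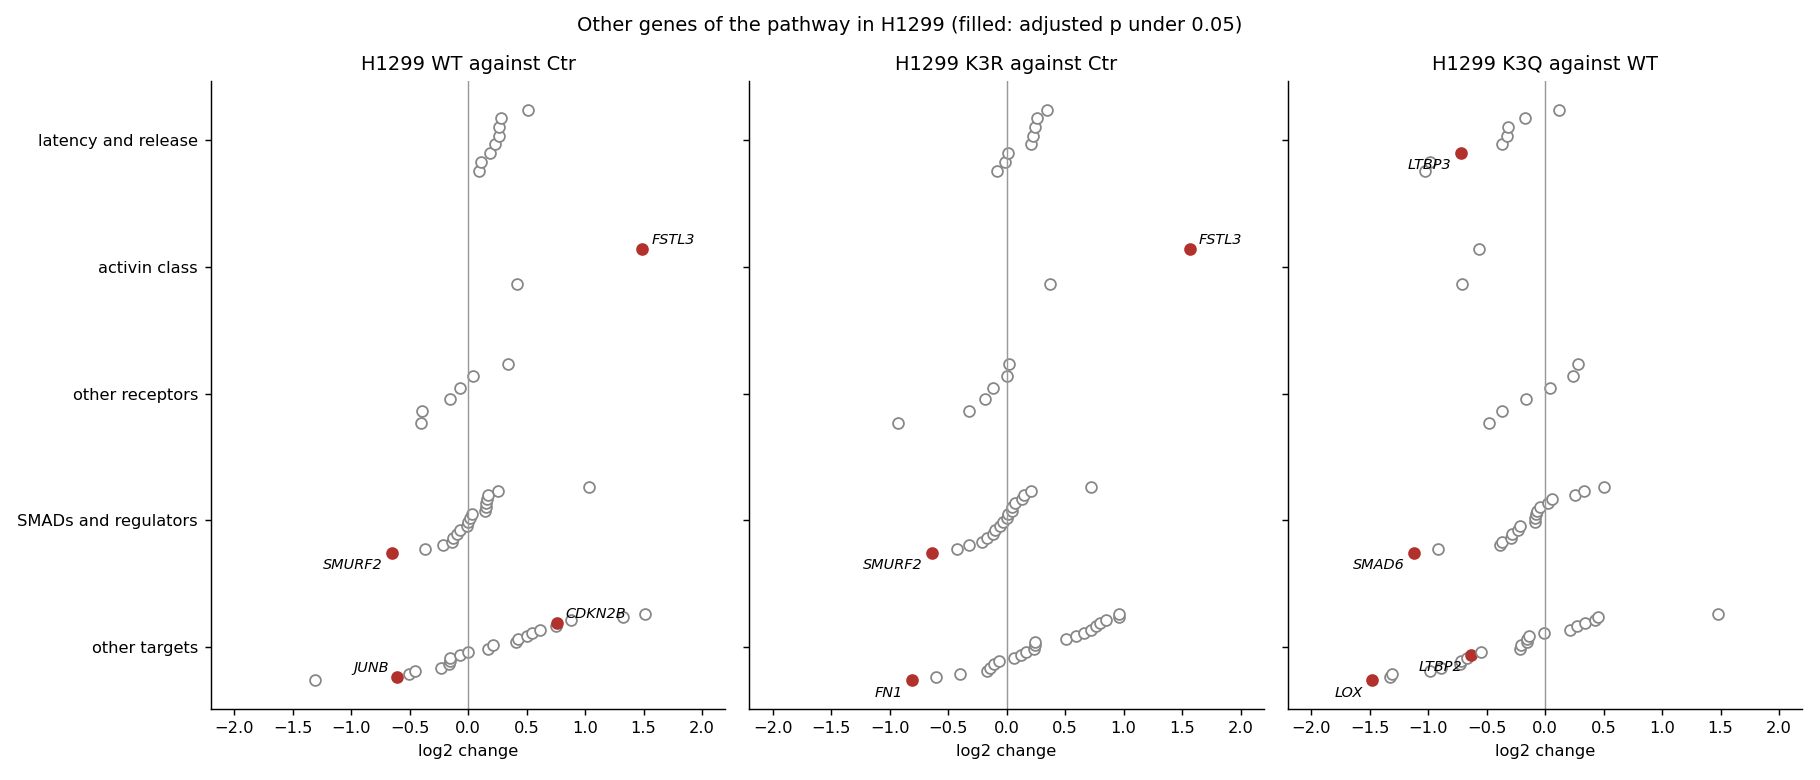
Log2 change of each tested gene of the 5 lists in H1299 for WT and K3R against Ctr and for K3Q against WT, by list; filled points passed at an adjusted p under 0.05 and are named. FSTL3 lies at 1.49 and 1.57 with WT and K3R, and SMURF2 at -0.65 and -0.64.

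In A549, 0 of 63 genes of the lists passed by edgeR in each of the 6 comparisons, with 3, 6 and 15 at an unadjusted p under 0.05 for WT, K3R and K3Q against Ctr and 0, 8 and 7 between the SIRT6 forms in the order above. Over all 16120 genes these counts were 1279, 1115 and 1390, and 116, 1041 and 708. DESeq2 called 0, 0, 3, 0, 1 and 0 of the 63, where 1.1%, 1.0%, 0.955%, 0%, 0.347% and 0.143% of all genes passed. The cytokine gene IL11 had the lowest p, at -1.76 ± 0.31 in K3Q against Ctr (adjusted p = 0.0996). Between the lines with the empty vector, where 64.9% of all genes passed, 51 of 65 tested genes of the lists did, 17 higher and 34 lower in H1299. Among the targets CDKN2B (11.94), LOX (3.32), CCN1 (2.87) and CCN2 (2.55) were higher in H1299 on the log2 scale, and COL4A1 (-7.83), IL11 (-5.16), FN1 (-4.80) and SERPINE2 (-3.98) were lower. Of the SMADs and regulators, SMURF2 (1.73) and TGIF2 (1.55) were higher and BAMBI (-6.63), SMAD6 (-5.02) and PMEPA1 (-4.50) lower. CDKN2B was at 0 CPM in every A549 Ctr library, so its fitted value depends on the prior count and is no measure of fold. COL4A1 was at 0 to 1.28 CPM in the H1299 Ctr libraries, and its value ran to -13.6 without Ctr 1-1, so it too is set by near-zero counts. Leaving out the same library gave -7.68 for BAMBI and -5.23 for PMEPA1, and leaving out H1299 Ctr 2-2 gave -5.80 for IL11. Of the latency genes 9 of 11 tested were lower in H1299, among them the integrin subunits ITGB8 (-3.91, or -3.14 without H1299 Ctr 1-1) and ITGB6 (-3.37), and LTBP4 (1.22) was higher.

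The genes with the most similar pattern over the 24 libraries, once the mean of each line was subtracted, were found by Pearson r of log2 CPM among 12342 genes, as a description in which all genes share the same libraries. For TGFB2 they were DIO2 (0.93), PPP2R2C (0.92) and SFMBT2 (0.90), and for THBS1 SFMBT2 (0.89), PRAG1 (0.88) and NOTCH1 (0.88). For TGFBR2 they were WNT7B (0.91), BTD (0.90) and PDGFA (0.86), and for TGFBI SMAD6 (0.88), EML1 (0.88) and SPDL1 (0.87). For TGFBR1 they were SLC30A6 (0.85), TMEM164 (0.80) and MED13L (0.80). Among the 10 genes themselves, THBS1 and TGFB2 had r of 0.82, TGFBI and SMAD7 0.82, and TGFBI and THBS1 0.75, whereas TGFBR1 had r of -0.27 to 0.35 with the others.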

How the data were processed

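Per the labels, RNA from A549 and H1299 cells was extracted with RNAiso Plus and prepared for sequencing with a SMARTer mRNA kit. For the 24 libraries the deposited table gives raw read counts per gene symbol. STAR, featureCounts, cutadapt and FastQC, and the build GRCh38, are listed in the submitters' processing notes. Their versions, the annotation release and whether strand was used are not given in the sources consulted.

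Each line was fitted on its 12 libraries with edgeR 4.0.16 (R 4.3.3): filterByExpr, TMM scaling, and the quasi-likelihood test with construct and batch as terms. The comparison of the lines and the interactions used all 24 libraries, with 8 groups and batch within line. The comparison of libraries 2-2 with 1-2 used the 8 libraries of batch 2 in a line, with construct as a term. Adjusted p-values are Benjamini-Hochberg over all genes tested, with a threshold of 0.05. Standard errors are the absolute log2 change over the square root of the F statistic. CPM values use TMM sizes over all 24 libraries, and log2 CPM a prior count of 2. Matching by symbol placed the 10 genes in GENCODE 29 (GRCh38), and promoter windows are RefSeq's on GRCh38.p14.

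The 10 genes, the gene lists, the promoter motifs and the tests were chosen with earlier results of these data known. All 10 genes are named in each family of comparisons. Of each list, up to 4 genes that passed in a comparison are named by lowest adjusted p, or up to 2 with the lowest p where none passed. Between the lines, up to 4 are named in each direction by size of change. Genes of similar pattern are named for the members that passed within a line. Not every gene this rule allows is named, and 1 gene of the lists is not reported here and was left out of their counts. The alternatives were the library code as a block, no batch term, DESeq2 1.42.0, RLE scaling, testing without the low-count filter, one fit of all 24 libraries, batch 2 alone, biological replicate 1 summed, the A549 K3Q pair summed or left out, and leaving out each library.

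Whether the library code pairs the constructs was checked by correlating deviations from the group means between constructs at the same code. Batch was kept in these deviations and adds to r. In H1299 every r was over 0.1 (0.108 to 0.494). Because batch was kept in, such values do not show that the code pairs the libraries. The block is therefore only an alternative, and its value is given where it changes a call. In A549 r was 0.218 to 0.665, except 0.0466 to 0.101 for K3Q 2-2. The highest of these lies near the lowest r of H1299, so r does not separate paired from unpaired libraries. On simulated data with known changes, the fits called 8 of 15639 unchanged genes in A549 and 5 of 15777 in H1299.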

Additional observations from a re-analysis of the deposited data

Results flagged for a closer look

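The interaction of line and WT flagged 2 of the 10 genes, since their change with WT differed between H1299 and A549 by the test of that difference. For TGFB2 the interaction was 1.77 on the log2 scale, from a rise of 1.45 in H1299 and a difference of -0.33 in A549 that did not pass. For TGFBR2 it was 0.65, from a rise of 0.52 in H1299 and a difference of -0.13 in A549 that did not pass. Single libraries far from the others were not looked for by a test, because each group held 3.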

How the results depend on the processing

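No value that passed the test, as reported or under an alternative, had another sign under any alternative run. Of the 180 values of a gene in a comparison, 48 changed sign under at least 1 alternative, none of which passed and each of which was within 1 SE of 0 as reported. The largest such move was that of THBS1 in H1299 K3Q against Ctr, from -0.06 to 0.82 in batch 2 alone. The counts of the 10 genes that passed moved as follows. With the replicate block they were 7 for WT, 4 for K3R and 1 for K3Q against Ctr in H1299, 6 for K3Q against WT, 4 in K3Q against K3R and 2 for the interaction with K3R, and the block changed no other count of the 10 genes. With no batch term they were 2 for WT and 0 for K3R against Ctr, 1 for K3Q against WT, 1 for the interaction with WT and 9 between the lines. Of all genes, 0.193% passed for that interaction and 60.8% between the lines with no batch term. Without the low-count filter they were 5 for WT, 5 for K3R and 2 for K3Q against Ctr, 1 for K3R and 4 for K3Q against WT, 5 for K3Q against K3R, 4 and 2 for the interactions with WT and K3R, and 2 for libraries 2-2 against 1-2 in A549. Of all genes, 0.0253% then passed for K3R against WT in H1299 and 9.35% for libraries 2-2 against 1-2 in A549. For the interactions with WT and K3R these shares were 1.27% and 1.09%. DESeq2 gave 6 for WT, 3 for K3R and 1 for K3Q against Ctr in H1299, 4 for K3Q against WT, 2 for K3Q against K3R, 3 and 2 for the interactions with WT and K3R and 2 for libraries 2-2 against 1-2 in A549. Batch 2 alone gave 2 for WT and 1 for K3R against Ctr, 2 in K3Q against WT and 0 in K3Q against K3R. Biological replicate 1 summed gave 2 for WT and 0 for K3R against Ctr, 1 in K3Q against WT, and 0 in K3Q against K3R. The fit of all 24 libraries gave 5 for WT and 3 for K3R against Ctr, 4 in K3Q against WT and 2 in K3Q against K3R. Of all 18102 genes, 4.45%, 3.89%, 4.1% and 0.884% passed in that fit, in the same order. Leaving out the construct K3Q gave 4 for libraries 2-2 against 1-2 in A549. The cause of these moves was not tested. Batch 2 alone had fewer libraries, all of 1 batch, so no batch term applied. The fits with replicate 1 summed had both fewer libraries and no batch term, so the 2 cannot be told apart there.

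Leaving out each library in turn gave 1 to 4 genes for WT and 0 to 3 for K3R against Ctr, 1 to 4 for K3Q against WT, 0 to 2 for K3Q against K3R, all in H1299, 1 to 2 for the interaction with WT and 0 to 2 for that with K3R, 9 to 10 between the lines, and 0 to 4 in A549 and 1 to 3 in H1299 for libraries 2-2 against 1-2. Among all genes these fits gave 245 to 742, 102 to 711, 41 to 849 and 0 to 123 in H1299, in the same order. They gave 61 to 146 and 30 to 115 for the interactions with WT and K3R, and 10317 to 12053 between the lines. For libraries 2-2 against 1-2 they gave 0 to 5529 in A549 and 519 to 3455 in H1299. RLE scaling changed no call of the 10 genes. Over all genes the counts moved more. For WT against Ctr in H1299 (659 genes), 409 passed with no batch term, 1585 with the block, 1301 without the filter, 1057 by DESeq2, 90 in batch 2 alone and 93 with replicate 1 summed. For K3R against Ctr (528) these were 330, 1392, 1276, 921, 20 and 44, for K3Q against WT (563) 188, 1946, 1258, 1123, 8 and 25, and in K3Q against K3R (73) 33, 526, 650, 337, 0 and 0. For K3Q against Ctr in H1299 (10) the block gave 136, no filter 260 and DESeq2 126. For WT, K3R and K3Q against Ctr in A549 (17, 19 and 4) the block gave 105, 88 and 144, no filter 296, 315 and 641, and DESeq2 178, 162 and 154. For libraries 2-2 against 1-2 in A549 (4) 5529 passed without K3Q. For the interactions with WT, K3R and K3Q (133, 86 and 3) the block gave 434, 301 and 37, and DESeq2 310, 240 and 50. With 3 libraries a group, changes under 1.5-fold mostly fell below what the test can show, and the low TGFB3 counts in A549 (14 to 30) limit the precision of its values.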
